A study of Mus musculus with 6 samples.

Results

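The amino acid response genes and cytosolic aminoacyl-tRNA synthetases were followed as a set of 37 genes, taken by gene symbol from a deposited table of 13595 genes, and all 37 were found there. They comprised 5 genes of the ATF4 axis, 5 of serine and one-carbon metabolism, 2 of proline synthesis, 7 amino acid transporters and 18 synthetases. Their RNA was sequenced from poly(A) libraries of cultured primary cells selected for CD31, an endothelial surface protein, from the livers of C57BL6/J mice aged 4 weeks. The contrast set 3 libraries labelled female against 3 labelled male. All 6 came from cells given 100 µM indoxyl sulfate, a tryptophan metabolite that activates the aryl hydrocarbon receptor, with hypoxia and nutrient deprivation for 6 hours, so the effect of those treatments was not analysed here. The labels do not say whether replicates 4, 5 and 6 of a sex came from separate mice. Each SD thus measures the spread between these libraries, which may be technical. Each p-value sets the difference between the groups against such spread, moderated over all genes, and need not hold for mice in general.

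When amino acids run short, uncharged tRNA activates the kinase GCN2, which phosphorylates the initiation factor eIF2. General translation then falls while that of the transcription factor ATF4 rises, and other eIF2 kinases reach ATF4 from endoplasmic reticulum stress, haem shortage or double-stranded RNA. ATF4 raises transcription of enzymes that make amino acids, of transporters that import them and of synthetases that load them onto tRNA, and with CHOP it takes part in the response to lasting stress. ATF4 itself is regulated in large part at translation, which RNA levels do not show.

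Depth ran from 22303270 to 31189363 recovered reads, and each member had at least 50 reads in every library. Male replicate 4 stood apart from the other males, with a chi-square statistic per gene of 43.6 and 45.4 against them, where other pairs of one sex gave 4.35 to 9.59 and pairs across sexes 304 to 412. Xist, the RNA of X inactivation, lay between 234 and 324 normalized reads in the libraries labelled female and under 1 in those labelled male. Ddx3y, which is Y-linked, lay between 48.5 and 57.7 in the libraries labelled female and 47.2 and 76.3 in those labelled male. Uty was also near the male level, whereas Eif2s3y (29.4 to 30.2 against 55.3 to 61.2) and Kdm5d (17.6 to 20.8 against 30.7 to 37.5) were lower but present. Y-linked RNA goes against the female label, so every direction given here rests on the labels. Stab2, a marker of liver sinusoidal endothelium, was below 1 in each library.

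Other cell type markers moved with the contrast. Pecam1, which encodes CD31, lay between 73.5 and 74.5 in the libraries labelled female and 391 and 423 in those labelled male. Of 10 endothelial markers, 9 were tested, with 7 lower and 1 higher in the libraries labelled female, and their summed level ran from 1156 to 1218 there against 2118 to 2232. Of 6 mesothelial markers, 5 were tested, with 4 higher and 1 lower and sums from 382 to 423 against 117 to 120. Of 10 mesenchymal markers, 9 were tested, with 4 higher and 5 lower and sums from 3463 to 4175 against 2799 to 3629. These sums join large opposite changes: the contractile marker Acta2 lay between 1513 and 1887 in the libraries labelled female against 45.9 and 134, and the collagen Col3a1 between 205 and 242 against 1115 and 1553. Tagln and Myh11 rose with Acta2, and Pdgfra and Pdgfrb fell with Col3a1. Of 6 cholangiocyte markers, 5 were tested, with 1 higher and 4 lower and sums from 512 to 613 against 1643 to 2492, and their defining marker Epcam lay under 1 in each library. Hepatocyte markers summed to at most 2.36 and macrophage markers to at most 15.8 in any library, with Alb at most 0.600 and Emr1 at 0 in all 6, and 0 of 8 lymphocyte markers were listed. The part of these markers in the results for the 37 genes was not tested. In bulk RNA, fewer cells of a type and less RNA per cell cannot be told apart.

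Most of the 37 genes were higher in the libraries labelled female. By limma on log2(value + 1), with Benjamini-Hochberg adjustment over 12568 tested genes and a threshold of 0.05, 31 of the 37 were called, of which 26 rose and 5 fell. Over all tested genes 69.3% were called, 34.6% as higher and 34.6% as lower, so the share called was 83.8% of the members and the share called higher 70.3%. The groups did not overlap for 30 of the 37 (81.1%), against a background of 74.1%. The changes were mostly moderate, and 5 members were called with a change of 1 log2 unit or more (13.5%, background 20.6%). Of these, Chac1, Asns, Phgdh and Gars were higher and Ddit3 was lower. The median log2 fold change of the members was 0.54, beside 0.01 for all tested genes. Without male replicate 4, 32 members were called, 26 higher and 6 lower, including all 31 of these.

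**Figure D1:**
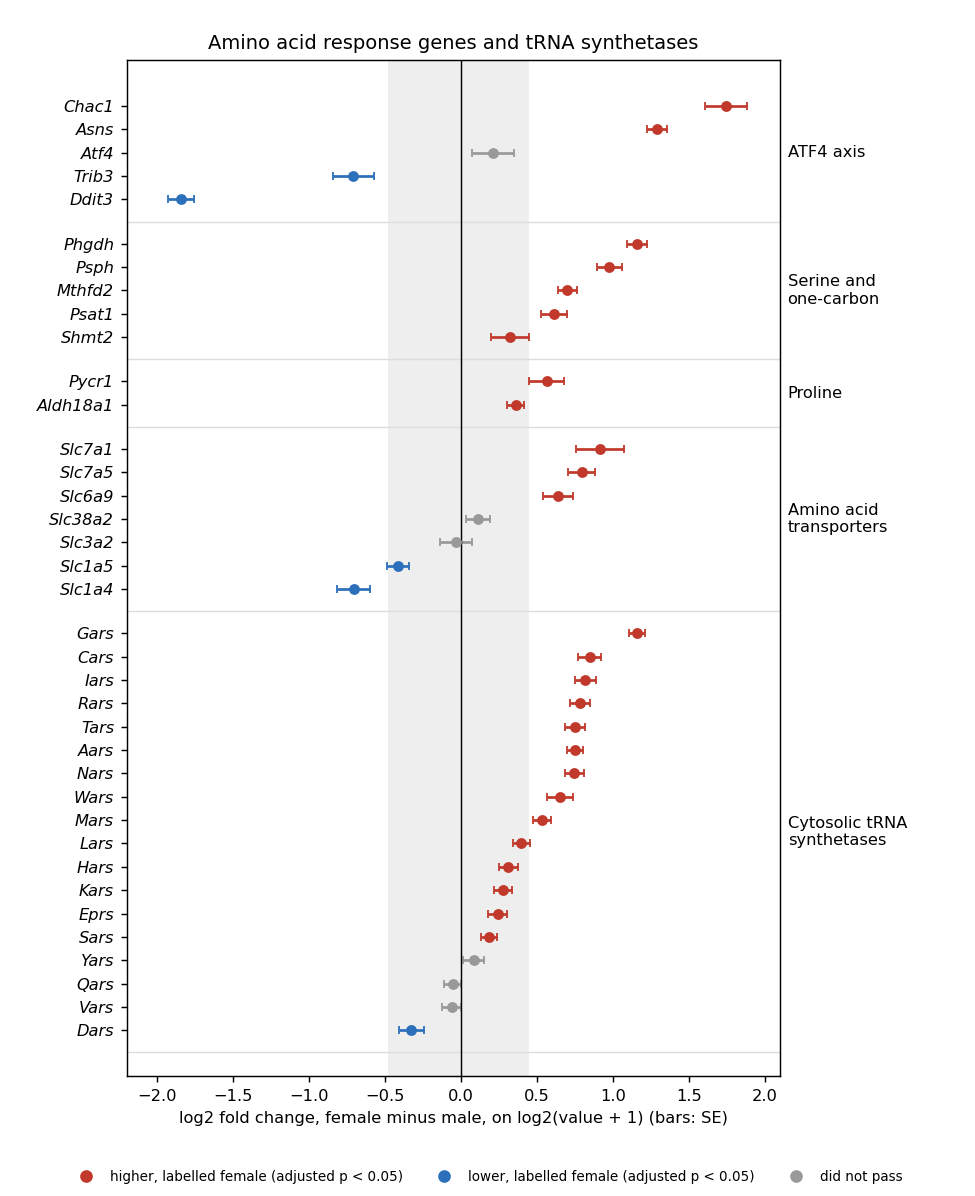
Log2 fold change (female minus male, on log2(value + 1), x axis) of each of the 37 genes by role, with bars for the SE of the limma fit and colour for the call at an adjusted p of 0.05; the grey band spans the middle 50% of all tested genes, from -0.47 to 0.44. Serine, proline and most synthetase genes lie to the right of 0, and the ATF4 axis spreads from -1.84 for Ddit3 to 1.75 for Chac1.

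ATF4 binds with C/EBP proteins to composite response elements with the letters TGATGNAA. RefSeq promoters (GRCm38.p6, 250 bases before to 50 after the annotated start) were matched by symbol for 28 of the 37 genes. Slc7a5, Slc1a5, Cars, Hars, Lars, Nars, Rars, Vars and Wars had no entry. The letters TGATGNAA were found on either strand in 10 of the 28 genes, that is in 10 of their 32 promoters (31.2%), against 3.97% of all 32851 promoters of the same length. TGATGCAA, which is one form of the same motif and so overlaps with it, was found in 7 of the 28 genes. Over all promoters, counted by promoter and not by gene, its share was 0.895%. The members were chosen from the ATF4 axis and classes of genes that ATF4 raises, so the choice itself favoured a share above that of all promoters. Of the 11 matches 10 are shown, because they place a motif known for ATF4 in genes that moved in opposite directions. Each is a window of 30 bases, written 5′ to 3′ on the gene's strand, with the match in capitals. A match on the other strand appears as its reverse complement.
Trib3, chr2:152344028-152344057, - strand: ttagctcaggtTTACATCAgccgggcgggg
Asns, chr6:7693214-7693243, - strand: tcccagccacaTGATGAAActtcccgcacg
Chac1, chr2:119351038-119351067, + strand: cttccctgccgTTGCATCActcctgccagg
Pycr1, chr11:120643833-120643862, - strand: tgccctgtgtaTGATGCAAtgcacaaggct
Slc1a4, chr11:20332699-20332728, - strand: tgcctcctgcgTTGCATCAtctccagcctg
Aars, downstream match, chr8:111033840-111033869, + strand: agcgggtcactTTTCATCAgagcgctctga
Gars, chr6:55037960-55037989, + strand: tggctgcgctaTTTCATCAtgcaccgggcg
Iars, chr13:49682126-49682155, + strand: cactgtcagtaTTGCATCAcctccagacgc
Tars, chr15:11399655-11399684, - strand: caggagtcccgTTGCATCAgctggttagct
Yars, chr4:129189895-129189924, + strand: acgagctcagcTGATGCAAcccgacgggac
Of the 10 genes with a match, 7 were called higher (Asns, Chac1, Pycr1, Aars, Gars, Iars and Tars), 2 were called lower (Trib3 and Slc1a4) and Yars was not called. Of the 18 matched genes with no TGATGNAA in this window, 12 were called higher, 2 lower and 4 were not called. For comparison, 70.3% of all members and 34.6% of all tested genes were called higher. These matches are a description of the letters, and factor binding was not measured.

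**Figure D2:**
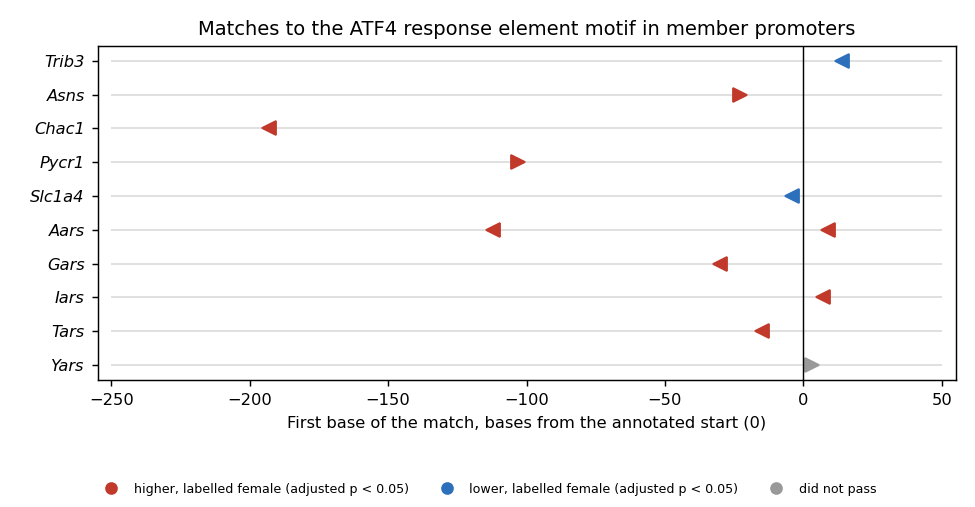
Distance in bases of each TGATGNAA match from the annotated start (x axis, 0 at the start) in the 10 genes that hold one; arrowheads point along the motif's strand and colour gives the call of the gene. The match of Chac1 lies 193 bases upstream and that of Trib3 14 bases downstream of the start, and 8 of the 11 lie within 30 bases of it.

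The upstream sequence of Chac1 and Asns, the members that rose most, is given in full up to the start, with the motif in capitals.
Chac1, chr2:119350992-119351241, + strand: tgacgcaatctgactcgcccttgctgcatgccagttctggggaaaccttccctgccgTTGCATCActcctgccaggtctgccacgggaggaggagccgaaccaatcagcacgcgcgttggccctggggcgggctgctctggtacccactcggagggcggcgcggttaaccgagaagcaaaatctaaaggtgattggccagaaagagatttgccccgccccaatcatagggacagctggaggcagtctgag
Asns, chr6:7693210-7693459, - strand: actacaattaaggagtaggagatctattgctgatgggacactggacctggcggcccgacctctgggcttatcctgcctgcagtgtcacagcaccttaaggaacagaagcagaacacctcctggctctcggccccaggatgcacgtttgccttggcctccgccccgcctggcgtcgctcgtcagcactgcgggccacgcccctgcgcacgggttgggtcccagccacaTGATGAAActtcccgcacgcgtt

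Within the ATF4 axis, genes of amino acid and glutathione metabolism rose while the stress factors CHOP and Trib3 fell. Atf4 stood at 200, 283 and 297 normalized reads in the male libraries (replicates 4, 5 and 6, the order used throughout) and at 300, 316 and 274 in those labelled female. The groups overlapped, male replicate 4 was the lowest library, and the log2 fold change of 0.21 (SE 0.14) did not pass the test (adjusted p 0.213); without male replicate 4 it was 0.03. Asns, which makes asparagine from aspartate and glutamine, was read at 82.9, 73.1 and 74.5 in the libraries labelled male and at 186, 192 and 189 in those labelled female. The libraries of a sex lay close together and far from the other sex, with a log2 fold change of 1.29 (SE 0.06, adjusted p 7.90e-07).

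Chac1, an enzyme that degrades glutathione and a known target of ATF4, was weakly expressed, at 2.07, 2.82 and 2.93 in the libraries labelled male. It was read at 12.3, 11.2 and 9.74 in those labelled female, a 4.25-fold higher mean. Every library labelled female lay above every library labelled male (log2 fold change 1.75, SE 0.14, adjusted p 9.58e-06). Ddit3, which encodes the transcription factor CHOP, stood at 157, 186 and 185 in the libraries labelled male against 51.6, 45.8 and 47.5. Its mean was 3.65-fold lower in the libraries labelled female, the largest fall among the members (log2 fold change -1.84, SE 0.08, adjusted p 4.85e-07). Trib3, a pseudokinase induced by ATF4 and CHOP that restrains them in turn, was read at 45.7, 60.7 and 66.4 against 36.3, 35.9 and 31.2. The groups did not overlap, although male replicate 4 came nearer to the libraries labelled female than the other males did (log2 fold change -0.71, SE 0.13, adjusted p 0.00161).

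**Figure D3:**
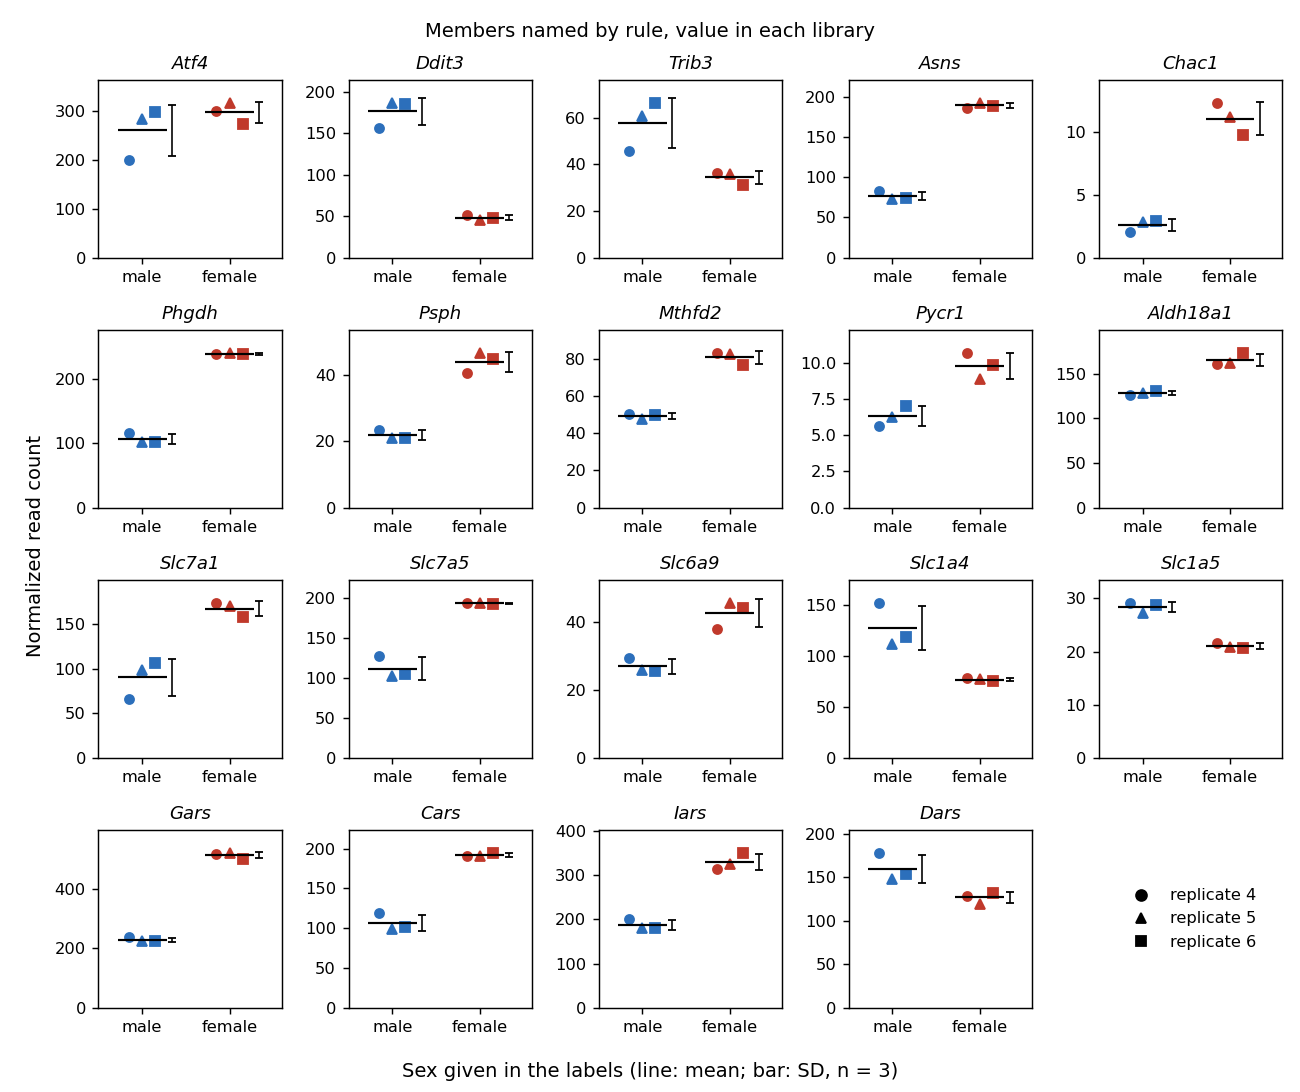
Normalized read count (y axis, from 0) in each library of 19 members, those of the ATF4 axis and others chosen because they were called with groups that did not overlap, with symbols for replicates 4, 5 and 6, a line for the group mean and a bar for the SD (n = 3). Atf4 shows overlapping groups, as do 6 members not plotted; the separation in the panels outside the ATF4 axis was fixed by the choice, and over all tested genes 74.1% had groups that did not overlap.

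All 5 members from serine synthesis and its one-carbon branch were called higher, with log2 fold changes from 0.32 to 1.16. The background was 34.6% called higher among all tested genes. Related enzymes of the branch, given further below, did not all rise. Phgdh, the first enzyme of serine synthesis from a glycolytic intermediate, stood at 115, 102 and 102 in the libraries labelled male and at 238, 240 and 238 in those labelled female. Its level more than doubled with almost no spread among the latter (log2 fold change 1.16, SE 0.07, adjusted p 1.44e-06). In the GENCODE M21 transcripts 47.8% of the 50-base stretches of Phgdh also occur in another gene, mainly the pseudogene Gm7901, so its value is uncertain. How many reads this concerned was not measured.

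Psph, which removes the phosphate in the last step of that route, was read at 23.4, 20.9 and 21.1 against 40.5, 46.5 and 44.6, with no overlap (log2 fold change 0.98, SE 0.08, adjusted p 1.61e-05). Psat1, the transaminase between them, rose less, from 153 ± 17.4 to 233 ± 11.1 (SD, n = 3, log2 fold change 0.61). The mitochondrial enzyme Mthfd2, which passes on the one-carbon unit taken from serine, was read at 50.4, 47.5 and 49.7 against 83.0, 82.2 and 76.7. The gap between its groups was several times the spread within them (log2 fold change 0.70, SE 0.06, adjusted p 2.14e-05). Shmt2, which splits serine into glycine and that one-carbon unit in mitochondria, was the weakest of the 5. It was read at 224, 162 and 159 against 215, 221 and 237, so male replicate 4 lay among the libraries labelled female. Its call (log2 fold change 0.32, SE 0.13, adjusted p 0.0482) was lost under 10 of 14 alternatives, for example with edgeR on recovered reads (adjusted p 0.0744). Without male replicate 4 its log2 fold change was 0.48.

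Both enzymes of proline synthesis from glutamate rose, where 34.6% of all tested genes were called higher. Aldh18a1, which makes the precursor of proline and ornithine, was read at 126, 128 and 131 against 161, 162 and 173 (log2 fold change 0.36, SE 0.06, adjusted p 0.000578). Pycr1, the mitochondrial reductase that completes the route, was scarce, at 5.64, 6.25 and 7.03 against 10.7, 8.88 and 9.83 (log2 fold change 0.56, SE 0.12, adjusted p 0.00239). Neither gene's groups overlapped (background 74.1%), and both changes were under 1.6-fold.

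Of the 7 amino acid transporters, 3 were called higher, 2 lower and 2 were not called. Their shares of 71.4% called and 42.9% called higher were near those of all tested genes (69.3% and 34.6%). Slc7a1, the carrier of arginine and lysine, was read at 66.1, 98.3 and 106 in the libraries labelled male and 174, 171 and 158 in those labelled female (log2 fold change 0.91, SE 0.16, adjusted p 0.000909). Male replicate 4 was the lowest of all 6, and without it the log2 fold change was 0.71. Slc7a5, the leucine carrier LAT1, was read at 128, 102 and 105 against 194, 194 and 193. Its values labelled female were almost identical (log2 fold change 0.79, SE 0.09, adjusted p 6.39e-05).

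Slc3a2, the heavy chain that LAT1 needs at the membrane, gave no call, at 200, 261 and 264 against 236, 228 and 240. Its groups overlapped, because male replicate 4 lay below and the other 2 males above all libraries labelled female (log2 fold change -0.03, adjusted p 0.815). Without male replicate 4 it was called lower, at -0.16. Slc6a9, a glycine carrier, was read at 29.4, 25.7 and 25.5 against 37.8, 45.5 and 44.2, higher without overlap (log2 fold change 0.64, SE 0.10, adjusted p 0.000427). Slc38a2, a carrier of neutral amino acids induced by their shortage, had the most reads of the 7 and did not pass the test, at 456 ± 14.5 against 494 ± 48.4 (SD, n = 3, log2 fold change 0.11, or 0.03 without female replicate 5).

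Slc1a4 and Slc1a5, related exchangers of small neutral amino acids, were both lower in the libraries labelled female. Slc1a4 stood at 151, 111 and 118 against 78.3, 76.6 and 74.8 (log2 fold change -0.71, SE 0.11, adjusted p 0.000485). Slc1a5, the glutamine exchanger ASCT2, stood at 29.1, 27.3 and 28.8 against 21.7, 20.8 and 20.7 (log2 fold change -0.41, SE 0.07, adjusted p 0.00107). Neither gene's groups overlapped, and male replicate 4 was the highest library for both.

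Of the 18 cytosolic synthetases, 14 were called higher, 1 lower and 3 were not called, and their median log2 fold change was 0.47. That is 83.3% called and 77.8% called higher, beside 69.3% and 34.6% of all tested genes. Gars, which charges tRNA with glycine in cytosol and mitochondria, changed most, from 237, 225 and 225 to 518, 520 and 501. Its level was 2.24-fold higher in the libraries labelled female, far outside the spread of both groups (log2 fold change 1.16, SE 0.05, adjusted p 5.68e-07). Cars, for cysteine, was read at 119, 99.4 and 102 against 191, 190 and 194 (log2 fold change 0.85, SE 0.08, adjusted p 1.95e-05). Iars, for isoleucine, was read at 200, 180 and 180 against 314, 326 and 350 (log2 fold change 0.82, SE 0.07, adjusted p 1.40e-05). In both, male replicate 4 was the highest male and still below all libraries labelled female.

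A group of close values followed, with log2 fold changes of 0.78 for Rars (arginine), 0.75 for Tars (threonine), 0.75 for Aars (alanine), 0.75 for Nars (asparagine) and 0.65 for Wars (tryptophan). The SE of each lay between 0.05 and 0.08, so these 5 do not differ beyond their errors. Mars (methionine) at 0.54 and Lars (leucine) at 0.40 came next. Smaller rises were called for Hars (histidine, 0.31), Kars (lysine, 0.28), Eprs (glutamate and proline, 0.24) and Sars (serine, 0.18), and the call of Sars was lost in 3 of the 6 fits that left out a library. Yars (tyrosine, 0.08), Qars (glutamine, -0.05) and Vars (valine, -0.06) did not pass the test. Dars, for aspartate, was the exception in direction, at 178, 148 and 154 against 129, 120 and 132 (log2 fold change -0.33, SE 0.08, adjusted p 0.00666). Its groups did not overlap.

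In mammals 8 of these enzymes, Dars, Eprs, Iars, Kars, Lars, Mars, Qars and Rars, sit in one multi-synthetase complex with 3 scaffold proteins. This division was made after the values were seen and is given without a test, beside the 34.6% of all tested genes that were called higher. Of the 8, 6 were called higher and 1 lower, with log2 fold changes from -0.33 to 0.82 and a median of 0.34. Of the 10 outside the complex, 8 were called higher and 0 lower, with log2 fold changes from -0.06 to 1.16 and a median of 0.70. The ranges of complex and free enzymes overlapped widely. The scaffold genes moved apart too: Eef1e1 (AIMP3) rose from 10.3 ± 1.99 to 28.1 ± 1.28 (SD, n = 3, log2 fold change 1.38), Aimp1 rose (0.27) and Aimp2 fell (-0.34).

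Divided by the length of the principal GENCODE M21 transcript, the synthetases spanned a several-fold range of levels. In the libraries labelled male Nars was the highest, at 111 ± 6.73 normalized reads per kb, before Gars at 96.3 ± 3.0 (SD, n = 3). In those labelled female Gars came first, at 215 ± 4.37, before Nars at 187 ± 4.02 and Rars at 121 ± 1.11 (SD, n = 3). Kars (95.7 ± 1.75) and Eprs (94.1 ± 2.84) followed and did not differ beyond their spread. Mars was the lowest in both groups, at 25.1 ± 0.695 and 36.6 ± 1.36 per kb. Dars stood at 73.6 ± 7.26 and 58.4 ± 2.98 per kb (SD, n = 3), and in the libraries labelled female Wars, Cars, Aars and Tars lay within its spread. The transcript used for Aars runs into Exosc6, a neighbouring gene, so its level per kb is uncertain.

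**Figure D4:**
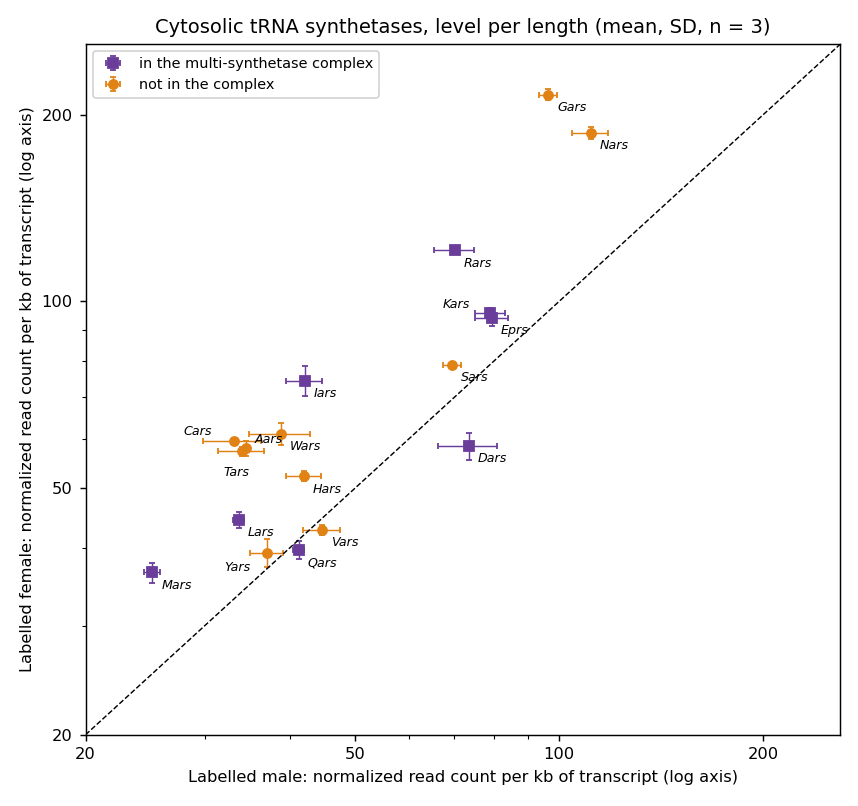
Normalized read count per kb of transcript of the 18 cytosolic synthetases in libraries labelled male (x) and female (y), both on log axes, as mean with SD (n = 3); squares are enzymes of the multi-synthetase complex, circles the others, and the dashed line marks equal levels. Gars (96.3 and 215) lies farthest above the line and Dars (73.6 and 58.4) below it.

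Related genes of the same pathways, which are not among the 37, were read from the same fit. Of 84 listed, 80 were in the table and 79 tested, with 32 called higher and 27 lower (74.7%, background 69.3%) and a median log2 fold change of 0.10. Of the 17 mitochondrial synthetases, 3 were called higher, 6 lower and 8 were not called (52.9% called, background 69.3%), with a median of -0.19. Their difference from the cytosolic enzymes was not tested. Mars2, for mitochondrial methionine, was the exception in size, at 0.456, 0.496 and 0.706 against 5.40, 4.11 and 4.37 (log2 fold change 1.85, adjusted p 5.67e-06). Its lowest library held 11 reads. For phenylalanine in the cytosol, Farsb rose slightly (0.18) and Farsa did not pass the test (0.10).

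All 10 listed eIF2 kinases and eIF2 regulators were called, 8 higher and 2 lower. Over all tested genes 69.3% were called, 34.6% as higher. Of the eIF2 kinases, Eif2ak4 (GCN2, the amino acid sensor) rose from 17.1 ± 1.06 to 26.8 ± 1.19 (SD, n = 3, log2 fold change 0.62). Its activator Gcn1l1 (0.92) and its inhibitor Impact (0.78) also rose. Eif2ak2 (PKR, 0.31) and Eif2ak3 (PERK, 0.31) rose less, and Eif2ak1 (the haem-regulated kinase) fell (-0.26). The groups of Eif2ak3 overlapped, with male replicate 4 at 33.3 and female replicate 6 at 33.0 (adjusted p 0.0291). The phosphatase subunits went opposite ways. Ppp1r15a (GADD34), which is induced by stress, stood at 110, 212 and 212 against 71.8, 92.4 and 66.4 (log2 fold change -1.15, SE 0.24, adjusted p 0.00290), with male replicate 4 nearest to the other group. Ppp1r15b (CReP), its constitutive counterpart, rose (0.98).

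Among 18 other known targets of ATF4 that were tested, 8 were called higher (44.4%) and 10 lower, beside 34.6% in each direction for all tested genes, and their median was -0.75. Ddit4 (REDD1), an inhibitor of mTORC1 that hypoxia also induces, fell most, from 788, 1288 and 1436 to 78.5, 79.7 and 78.6 (log2 fold change -3.83, SE 0.19, adjusted p 7.81e-07). Log2 fold changes below -1 were also found for Stc2 (-2.82), Atf3 (-1.72), Vldlr (-1.62), Cebpb (-1.41), Adm2 (-1.26) and Sesn2 (-1.04). Atf3 and Cebpb are partners of ATF4 in transcription, and Sesn2 is a leucine sensor that restrains mTORC1. On the other side stood Slc7a3, a carrier of cationic amino acids (1.23), with smaller rises of the tRNA export factor Xpot (0.95) and the cystine carrier Slc7a11 (0.74).

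Of 14 further enzymes of folate, proline and glutamate metabolism, 6 were called higher and 2 lower (57.1% called, background 69.3%). Aldh1l1, a cytosolic folate enzyme, fell from 25.6 ± 2.54 to 5.93 ± 0.566 (SD, n = 3, log2 fold change -1.94). Of the other one-carbon enzymes, Mthfd1 was called higher (0.35) and Mthfd1l lower (-0.64). Shmt1 (0.02), Mthfd2l (0.19) and Aldh1l2 (0.08) did not pass the test. Among 15 other transporters tested, 4 were called higher and 6 lower (66.7% called, near the background of 69.3%). Slc7a2, a carrier of arginine, fell from 427 ± 82.8 to 53.0 ± 8.83 (SD, n = 3, log2 fold change -2.98), where its relative Slc7a1 rose. Slc7a8, the LAT2 carrier, fell (-2.91) where Slc7a5 rose, and Slc43a1 fell as well (-1.14). Slc6a6, the taurine carrier (1.01), and Slc7a6 (1.12) rose.

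**Figure D5:**
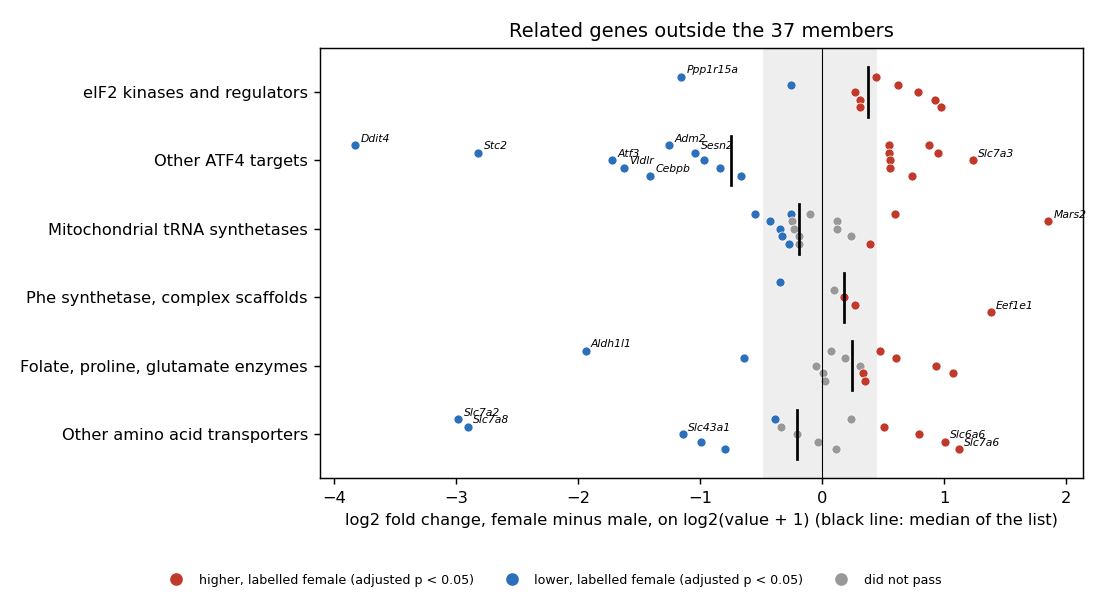
Log2 fold change (female minus male, on log2(value + 1), x axis) of the 79 tested genes of 6 related lists, 1 point per gene, with colour for the call, a black line for the median of the list and names for most called genes with an absolute value of at least 1. The grey band spans the middle 50% of all tested genes. Ddit4 (-3.83) lies farthest to the left and Mars2 (1.85) farthest to the right.

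The authors' deposited table gives its own comparison of the sexes. In the authors' deposited table, a false discovery rate below 0.05 was given to 16 members, of which 15 were higher and Ddit3 was lower, against 25.8% of all its genes. All 16 were called here too and in the same direction. The authors' deposited table gives Ddit3 a fold change of -3.64, Chac1 4.24, Asns 2.46 and Gars 2.24. For 15 members called here the false discovery rate in the authors' deposited table is above 0.05, from 0.0728 (Psat1) to 0.615 (Sars). Mars (0.0783) and Trib3 (0.12) lie towards the lower end, and Dars (0.375), Shmt2 (0.492) and Eprs (0.531) towards the upper. The eIF2 kinases called here are above 0.05 there too: Eif2ak4 (0.055), Eif2ak3 (0.35), Eif2ak1 (0.45) and Eif2ak2 (0.68).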

How the data were processed

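Trizol with a column served for extraction and Kapa HyperPrep for poly(A) libraries, per the labels' protocols. Bowtie2, RSEM and edgeR and the build mm39 are named, without roles or versions, per the submitters' processing notes. Normalized read counts make up the deposited signal: 100% of the values in each column were whole multiples, within 1e-06, of the smallest value above 0. Dividing by it gave back the reads, which cover the genes of the table only. Per the file headers, the deposited table also holds the authors' own comparison of female with male, as a signed fold change (score) and a p-value with its false discovery rate. Every library column matched 1 sample.

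The table holds normalized values, so limma 3.58.1 (R 4.3.3, eBayes with trend) was fitted to log2(value + 1), with sex from the labels as the only term. It covered 12568 genes that reached 1 in 3 or more libraries. Fold changes on this scale understate those of weakly expressed genes. edgeR 4.0.16 and DESeq2 1.42.0 on the recovered reads were alternatives, and the scripts were tested on simulated reads. Members, lists and motif were chosen with earlier results of these data known. The values in every library are given for the ATF4 axis and, in each other role, for up to 3 called increases and 3 called decreases with groups that did not overlap. Shmt2, Slc3a2, Mars2, Ppp1r15a and Ddit4 were given so after their values were seen. Other related genes were named if called with a change of 1 log2 unit or more, as eIF2 kinases, or after their values were seen. The values of 1 related gene and the sequence of 1 motif match are not reported here. GENCODE M21 (GRCm38) gave transcript lengths and shared 50-base stretches.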

Additional observations from a re-analysis of the deposited data

How the results depend on the processing

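The alternatives were median-ratio (RLE) size factors, quantile normalization, no filter, a minimum of 10 reads in all libraries, a pseudocount of 0.1, the replicate block, edgeR, DESeq2 and each library left out in turn. Under them 29 to 32 of the 37 genes were called, and all calls shared with the first fit had the same direction. Leaving out a library gave 29 to 32 called members, 5 or 6 with a change of 1 log2 unit or more, a median between 0.50 and 0.56, 51 to 62 related genes and 7373 to 9113 genes in all. Under quantile normalization the median of the members was 0.59, while that of all genes was 0.08. Of 518 recomputed values of single members, 499 kept direction and call. The 13 calls lost belonged to Shmt2 and Sars, and the 1 gained to Slc3a2. The 5 reversed values were of genes that were not called: Slc3a2 (0.080), Qars (0.012) and Vars (0.052) under quantile normalization, and Slc3a2 without male replicate 5 (0.032) or 6, where leaving out a library gave values from -0.16 to 0.039. The cause was not tested. Replicate numbers gave no pairing: deviations of same-numbered libraries had correlations of -0.09, -0.03 and -0.17. With the replicate block 30 members were called, as with edgeR (8975 genes in all) and DESeq2 (8874). Depth limits Chac1 and Pycr1 among the members, with as few as 50 and 136 reads in a library, and outside them Mars2 (11), Slc43a1 (12), Adm2 (45) and Slc7a8 (46).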

Other observations

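Within the libraries labelled male, replicate 4 lay above both others for 23 of the 37 genes, below both for 13 and between them for 1. Its ratio to the mean of the other 2 males lay farthest from 1 in 7 genes. It was lower for Slc7a1 (0.647 of that mean), Atf4 (0.690), Trib3 (0.719), Chac1 (0.721) and Slc3a2 (0.760), and higher for Shmt2 (1.40) and Slc1a4 (1.32). Outside the 37 genes, it was also low for Atf3 (0.487), Ppp1r15a (0.521) and Ddit4 (0.579) and high for Aldh1l2, a mitochondrial folate enzyme (1.79). Among the synthetases its ratio ran from 0.833 for Wars to 1.18 for Cars and Dars.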
